A study of Homo sapiens with 32 samples.

Results

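The genes described here are 9 components of the pathway by which cells sense type I interferon, out of 62703 gene identifiers counted in each library: the receptor chains IFNAR1 and IFNAR2, the kinases JAK1 and TYK2, the factors STAT2 and IRF9, and the interferon regulatory factors IRF1, IRF2 and IRF7. They were chosen by name, from their place in the pathway, with earlier results of these data known. All 9 were found in the tables, and all 9 passed the filter on low counts in every fit. They were measured by stranded poly(A) RNA sequencing of HEK293T, a widely used cell line from human embryonic kidney, after CRISPR/Cas9 editing of IGF2BP1, IGF2BP2 or IGF2BP3, which encode RNA-binding proteins of one family. For each gene, plasmids that do not integrate carried 3 guide RNAs and a GFP reporter, single GFP-positive cells were sorted, and colonies were screened for the protein. Each knockout is 1 clone, written here as IGF2BP1-KO, IGF2BP2-KO and IGF2BP3-KO. The control received a guide with no target among mammalian genes, and whether it is a clone or a pool is not stated. No interferon or other treatment was given to any group.

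Total, nuclear and cytoplasmic RNA gave 32 libraries of 13689067 to 26119480 counts. Each RNA kind had 4 control libraries, 1 in each of batches 1 to 4, and 2 libraries per knockout, with a further 2 cytoplasmic libraries of the IGF2BP3-KO clone. The IGF2BP1-KO clone was in batches 1 and 2, and the IGF2BP2-KO and IGF2BP3-KO clones were in batches 3 and 4 and were compared with the same controls. The further 2 cytoplasmic libraries of the IGF2BP3-KO clone were in batch 5, which held no control. The total RNA library of the IGF2BP1-KO clone in batch 2 and its nuclear library in batch 1 held identical counts (0 identifiers differed), so the 2 labels stand for 1 library, and the results on the IGF2BP1-KO clone that change with it are given with and without it. Nothing states that libraries came from separate cultures, so p-values measure the spread between these libraries, which may be technical. Of 8 markers listed for this cell line, 7 were at or above 1 CPM (reads counted for a gene, scaled to a fixed library size) in every group, PAX8 being the exception, and 0 of 7 markers of differentiated kidney tubule were. With 1 clone per gene, a difference between a knockout and the control cannot be told apart from a difference between clones. Each clone was lower in the gene it was edited at, in all 3 RNA kinds: in total RNA IGF2BP1 went from 424 to 501 CPM in the controls to 25.1 and 28, IGF2BP2 from 78.7 to 111 to 32.1 and 32.8, and IGF2BP3 from 85.5 to 92.4 to 39.9 and 41.

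Type I interferons bind a receptor of 2 chains, IFNAR1 and IFNAR2, at the cell surface. TYK2 is bound to IFNAR1 and JAK1 to IFNAR2, and ligand brings these tyrosine kinases together so that they phosphorylate STAT2. STAT2 and IRF9 are parts of the complex ISGF3, which enters the nucleus and binds interferon-stimulated response elements (ISRE) near its target genes, IRF7 among them. Gamma-activated sites (GAS) are the other class of response element through which interferons act. IRF1 and IRF7 mostly activate such genes, and IRF2 mostly represses them.

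Promoters are shown for 4 of these genes whose RNA level differed from the control in the IGF2BP3-KO clone, 3 of them higher (IRF1, IRF9 and STAT2) and 1 lower (TYK2). Each is the 250 bases before a RefSeq start (GRCh38.p14), written 5′ to 3′ on the strand of the gene, and capitals mark a match to the GAS letters TTCNNNGAA.
IRF1, chr5:132490774-132491023, minus strand: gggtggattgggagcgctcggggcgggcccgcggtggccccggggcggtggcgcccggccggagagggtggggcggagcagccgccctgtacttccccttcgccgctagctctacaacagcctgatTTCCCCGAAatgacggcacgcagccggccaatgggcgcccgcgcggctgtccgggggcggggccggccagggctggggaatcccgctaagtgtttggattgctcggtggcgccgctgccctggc
IRF9, chr14:24161015-24161264, plus strand: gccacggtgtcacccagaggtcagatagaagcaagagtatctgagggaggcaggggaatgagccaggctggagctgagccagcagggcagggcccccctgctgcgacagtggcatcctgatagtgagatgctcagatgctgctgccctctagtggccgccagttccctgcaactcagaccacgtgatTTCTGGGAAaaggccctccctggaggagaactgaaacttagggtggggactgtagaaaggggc
STAT2, chr12:56360108-56360357, minus strand: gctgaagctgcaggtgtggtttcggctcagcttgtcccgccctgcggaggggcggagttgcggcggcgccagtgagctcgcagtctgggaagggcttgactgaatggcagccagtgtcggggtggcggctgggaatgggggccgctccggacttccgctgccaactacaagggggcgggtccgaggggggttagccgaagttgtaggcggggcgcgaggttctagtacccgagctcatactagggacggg
TYK2, chr19:10380573-10380822, minus strand: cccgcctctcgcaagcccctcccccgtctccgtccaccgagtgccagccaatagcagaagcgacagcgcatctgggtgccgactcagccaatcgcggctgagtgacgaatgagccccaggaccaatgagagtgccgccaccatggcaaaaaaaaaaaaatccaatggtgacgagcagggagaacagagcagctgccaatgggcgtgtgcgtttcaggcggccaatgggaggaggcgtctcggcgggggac
The reference table held 9 such windows for 6 of the 9 genes and none for IFNAR2, IRF2 or IRF7, whose promoters were thus not searched. Both strands were searched. IRF1 had 1 match, TTCCCCGAA at chr5:132490889-132490897, which begins 124 bases before the start, and IRF9 had 1, TTCTGGGAA at chr14:24161202-24161210, which begins 63 bases before it. The other 7 windows of these genes held no match, and none of the 9 windows held the core ISRE letters GAAANNGAA. Among all 35116 promoter windows of the same length, 6.57% held the GAS letters and 6.88% the ISRE letters. None of the 9 windows held both motifs, and a match says only that the letters are present.

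In the control, the kinases were the highest of the 9 genes in total RNA and the interferon regulatory factors the lowest. Levels here are CPM after TMM normalisation, and to compare genes they were divided by the length of the exons in GENCODE release 29. TYK2 was at 25.1 ± 1.58 CPM per kb (mean ± SD, n = 4) and JAK1 at 21.9 ± 0.998. IFNAR1 followed at 14 ± 0.143 CPM per kb and STAT2 at 10.7 ± 0.386. IFNAR2 was at 3.54 ± 0.457 CPM per kb, or at 6.34 if the 44.2% of its exon bases that it shares with the same-strand read-through gene AP000295.1 are left out of its length. The 4 IRF genes were lower, IRF2 at 1.79 ± 0.314, IRF1 at 0.933 ± 0.0421, IRF9 at 0.815 ± 0.0681 and IRF7 at 0.471 ± 0.103 CPM per kb. In this order the 4 values of each gene lay apart from those of its neighbours, most narrowly for IRF1 and IRF9. IRF9 would stand at 1.58, above IRF1, without the 48.4% of exon bases it shares with the same-strand gene AL136295.5. HEK293T cells thus held RNA for both receptor chains, both kinases, STAT2 and IRF9, while the ligands were close to absent. Of 21 interferon genes looked up, 9 had 0 counts in every library and 20 had at most 3 counts in any library, and IFNE reached 11. A limit of 3 counts in 1 library equals 0.115 to 0.219 CPM, and it covers counting error only.

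**Figure D1:**
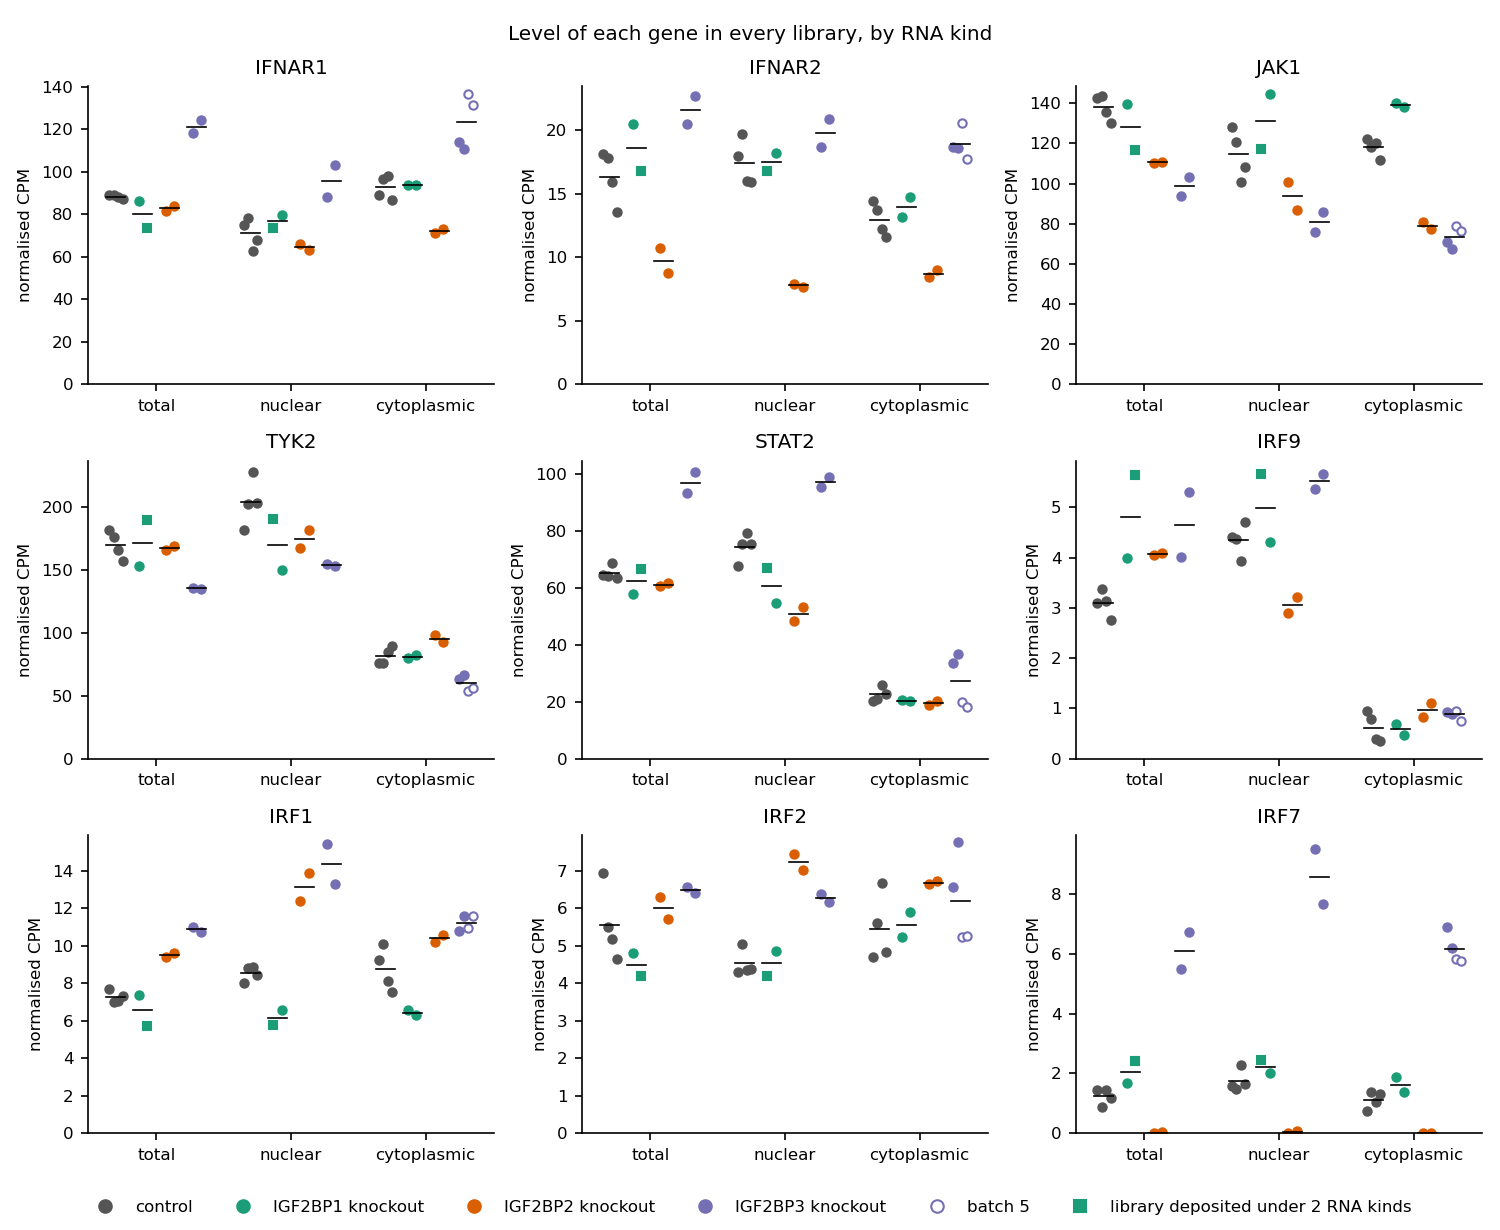
Level of each of the 9 genes in every library, in TMM-normalised CPM on the vertical axes, by RNA kind and genotype along the horizontal axes. Open circles are the 2 cytoplasmic IGF2BP3-KO clone libraries of batch 5 and squares the library that stands under 2 labels; IRF7 lies at or near 0 in all 6 IGF2BP2-KO clone libraries and above the controls in all 8 of the IGF2BP3-KO clone.

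The IGF2BP3-KO clone differed from the control at more of these genes than the other 2 knockouts did, and mostly upward. A gene was called where the adjusted p of edgeR's quasi-likelihood test, with batch as a term and Benjamini-Hochberg adjustment over all genes tested, was under 0.05. Higher in the IGF2BP3-KO clone were 7 of 9 genes in total RNA (23.5% of all genes tested were), 6 in nuclear RNA (25.1%) and 7 in cytoplasmic RNA (31.5%). Lower were the same 2 genes, JAK1 and TYK2, in total (23.4%), nuclear (25.3%) and cytoplasmic RNA (33.2%). Called higher in all 3 kinds were IFNAR1, IFNAR2, STAT2, IRF1, IRF2 and IRF7. Among the calls lost in a fit without the batch term were STAT2, IRF2 and IRF9 in cytoplasmic RNA, IRF2 in total RNA and IFNAR2 in nuclear RNA. The cytoplasmic libraries of batch 5 averaged 19.2 CPM for STAT2 and 5.25 for IRF2, beside 22.6 and 5.45 in the controls. The median log2 fold change of the 9 genes was 0.55, 0.36 and 0.52 in the 3 kinds, beside 0.01 to 0.02 for all genes tested. In bulk RNA, fewer cells that express a gene and less of its RNA per cell cannot be told apart. Other RNAs differed in total RNA of this clone as well. The 8 markers of the cell line summed to 577 and 581 CPM, against 964 to 999 in the controls, 673 and 722 in the IGF2BP1-KO clone and 903 and 940 in the IGF2BP2-KO clone. A list of 4 RNAs held in the nucleus (MALAT1, NEAT1, KCNQ1OT1 and MEG3) summed to 1167 and 1424 CPM against 249 to 305 in the controls. The part of these RNAs in the changes of the 9 genes was not tested.

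The 9 genes split in the IGF2BP2-KO clone. Higher were 1 of 9 genes in total RNA (23.3% of all genes), 2 in the nuclear fraction (24.8%) and 3 in the cytoplasmic one (30.9%), and lower were 3 (23.7%), 4 (24.9%) and 5 (33.2%). IRF1 was higher and IFNAR2 and IRF7 lower in all 3 kinds. The median log2 fold changes were -0.08, -0.30 and -0.33. No gene was called in all 3 kinds of the IGF2BP1-KO clone: 0 of 9 were higher in total RNA (10.7%), 0 in the nuclear fraction (12.7%) and 1 in the cytoplasmic one (22.5%), and 1 was lower in each of total (13.5%), nuclear (13%) and cytoplasmic RNA (21.9%). At an unadjusted p under 0.05, 3 and 2 genes of the IGF2BP1-KO clone passed in total and nuclear RNA. The called shares in the IGF2BP1-KO clone and the IGF2BP2-KO clone total RNA stood near or below those of all genes, and those counts are no result about the 9 genes.

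**Figure D2:**
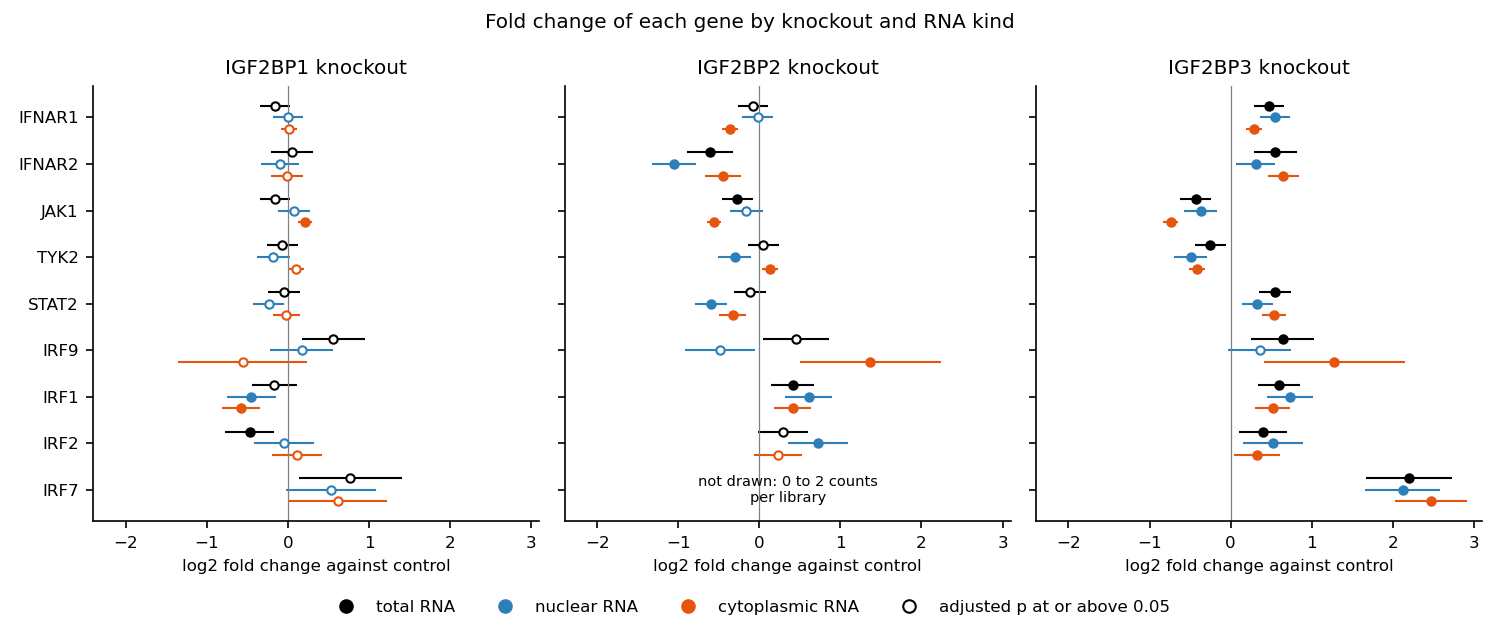
Log2 fold change of each gene against the control (horizontal axis, edgeR, TMM normalisation), by knockout and RNA kind, with bars of 1.96 standard errors; IRF7 in the IGF2BP2-KO clone is not drawn because its libraries held 0 to 2 counts. The IGF2BP3-KO clone points lie right of 0 for all but JAK1 and TYK2, the log2 fold changes of IRF7 reaching 2.12 to 2.47.

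IRF7, the factor that amplifies interferon production once it is itself induced, separated the knockouts most. It lies on chromosome 11 (612553 to 615999, minus strand, GRCh38). In total RNA it had 32, 16, 29 and 19 counts in the 4 controls, 33 and 50 in the IGF2BP1-KO clone, 0 and 1 in the IGF2BP2-KO clone, and 148 and 147 in the IGF2BP3-KO clone. The same order stood in the other fractions. Nuclear RNA had 28, 37, 47 and 26 counts in the controls, 50 and 40, then 0 and 2, then 191 and 157 in the 3 knockouts. Cytoplasmic RNA had 14, 28, 16 and 22 in the controls, 38 and 26 in the IGF2BP1-KO clone, 0 and 0 in the IGF2BP2-KO clone, and 179, 180, 135 and 130 in the IGF2BP3-KO clone, the last 2 from batch 5. No IGF2BP2-KO clone library reached the lowest control and no IGF2BP3-KO clone library came down to the highest.

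Against the controls of the same batches, IRF7 in the IGF2BP2-KO clone was at 2.04% of the control in total RNA (95% interval 0.0506 to 11.9, from 1 count against 48). In nuclear RNA it was at 2.81% (0.334 to 10.5, from 2 counts against 73). In cytoplasmic RNA it had 0 counts against 38, with an upper 95% limit of 7.71% of the control. These intervals are exact binomial ones and cover counting error only, and reads without molecular identifiers are not independent molecules. The call for lower IRF7 held in each of the alternatives run in all 3 kinds, with adjusted p in edgeR's test of 9.75e-05, 1.63e-09 and 2.19e-08.

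IRF7 rose in the IGF2BP3-KO clone, 4.58-fold in total RNA (log2 2.20 ± 0.271 SE, adjusted p = 2.96e-05 by edgeR), 4.34-fold in nuclear RNA (2.12 ± 0.238, 3.22e-10) and 5.54-fold in cytoplasmic RNA (2.47 ± 0.228, 2.77e-11). The cytoplasmic libraries of batch 5, which the batch term keeps out of this fold change, were at 5.83 and 5.76 CPM, beside 6.9 and 6.19 in batches 3 and 4 and 0.73 to 1.39 in the controls. Directly between the knockouts, over batches 3 and 4, IRF7 had 295 counts in the IGF2BP3-KO clone against 1 in the IGF2BP2-KO clone in total RNA, a ratio of 261 with a lower 95% bound of 46.5. In nuclear RNA it had 348 against 2, a ratio of 166 with a lower bound of 45.5. In cytoplasmic RNA it had 359 against 0, with a lower bound of 90.7 on the ratio. The IGF2BP1-KO clone had log2 fold changes of IRF7 of 0.77, 0.53 and 0.62 (adjusted p by edgeR 0.104, 0.179 and 0.105). Without the library under 2 labels they were 0.19 in total RNA (0.783) and 0.42 in nuclear RNA (0.451).

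The receptor chains moved together in the IGF2BP3-KO clone. IFNAR1, the chain that binds TYK2, is on chromosome 21 (33324477 to 33359862, plus strand), and IFNAR2, the chain of higher affinity for ligand, lies before it on the same strand (33229901 to 33265675). In total RNA IFNAR1 was at 88.8, 88.9, 88.1 and 87 CPM in the controls, 86.4 and 73.3 in the IGF2BP1-KO clone, 81.6 and 84.1 in the IGF2BP2-KO clone, and 118 and 124 in the IGF2BP3-KO clone. Only the IGF2BP3-KO clone libraries stood above the controls, and the other 4 knockout libraries stood below them. Divided by total counts, without TMM, the IGF2BP2-KO clone would stand above the controls, at 87.2 and 89.3 CPM against 81.3 to 83.5, and the IGF2BP1-KO clone at 84.9 and 70.9. In the IGF2BP3-KO clone, with TMM, IFNAR1 rose 1.38-fold in total RNA (log2 0.47 ± 0.0941, adjusted p = 0.00124 by edgeR), 1.46-fold in nuclear RNA (0.55 ± 0.0938, 3.22e-06) and 1.22-fold in cytoplasmic RNA (0.29 ± 0.0487, 4.47e-06). In the cytoplasm the controls were at 86.8 to 97.9 CPM and the IGF2BP3-KO clone at 114 and 111, with 137 and 131 in batch 5. IFNAR1 was called lower in the IGF2BP2-KO clone in cytoplasmic RNA, at 71.2 and 72.8 CPM (log2 -0.36 ± 0.0512, 2.22e-07), while in nuclear RNA the log2 fold change was -0.02 ± 0.0954 (0.899). The change in its ratio of nuclear to cytoplasmic RNA, 0.30 ± 0.117, missed the threshold (adjusted p = 0.0625 by edgeR).

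IFNAR2 went in opposite directions in the IGF2BP2-KO and IGF2BP3-KO clones. In total RNA it was at 18.1, 17.8, 15.9 and 13.5 CPM in the controls, 20.5 and 16.8 in the IGF2BP1-KO clone, 10.7 and 8.71 in the IGF2BP2-KO clone, and 20.5 and 22.7 in the IGF2BP3-KO clone. Nuclear RNA held 15.9 to 19.7 CPM in the controls, 7.87 and 7.67 in the IGF2BP2-KO clone, and 18.7 and 20.9 in the IGF2BP3-KO clone. The IGF2BP2-KO clone libraries lay below every control in all 3 kinds, and the IGF2BP3-KO clone libraries above every control in total and cytoplasmic RNA, with an overlap in nuclear RNA. The fall in the IGF2BP2-KO clone was 1.53-fold in total RNA (log2 -0.61 ± 0.145, adjusted p = 0.00374 by edgeR), 2.07-fold in nuclear RNA (-1.05 ± 0.137, 1.6e-08) and 1.36-fold in cytoplasmic RNA (-0.45 ± 0.112, 0.000735). The cytoplasmic fall was not called under total count scaling (-0.23, 0.0739), nor the total RNA fall without the control of batch 3 (0.0743) or the IGF2BP2-KO library of batch 4 (0.114). It rose in the IGF2BP3-KO clone 1.47-fold in total RNA (0.55 ± 0.134, 0.00435) and 1.57-fold in cytoplasmic RNA (0.65 ± 0.0964, 4.25e-07), where batch 5 gave 20.6 and 17.8 CPM against 11.6 to 14.4 in the controls. The 1.24-fold rise in nuclear RNA (0.31 ± 0.122, 0.0311) was not called without the batch term (adjusted p = 0.199 by edgeR with no replicate block). The overlapping AP000295.1 was not called in either knockout in any kind.

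Between the 2 knockouts the difference in receptor RNA was tested in the same fit. IFNAR2 was higher in the IGF2BP3-KO clone than in the IGF2BP2-KO clone by 1.16 ± 0.138 (log2, total RNA), 1.36 ± 0.133 (nuclear) and 1.10 ± 0.0928 (cytoplasmic RNA) (adjusted p by edgeR 2.8e-05, 9.44e-12 and 2.55e-12). IFNAR1 was higher by 0.55 ± 0.094, 0.57 ± 0.0939 and 0.64 ± 0.0475 (0.000464, 2.02e-06 and 9.01e-14). Over all 9 genes this comparison called 5 in total RNA (43.3% of all genes), 5 in nuclear RNA (48.2%) and 6 in cytoplasmic RNA (62.7%). For IFNAR1, IFNAR2, STAT2 and IRF7 the difference was called in each kind, though for STAT2 in cytoplasmic RNA not with no replicate block.

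The kinases went the other way in the IGF2BP3-KO clone. JAK1 (chromosome 1, 64833229 to 64966504, minus strand), which serves many cytokine receptors, was in total RNA at 143, 144, 136 and 130 CPM in the controls, 140 and 117 in the IGF2BP1-KO clone, 110 and 111 in the IGF2BP2-KO clone, and 94 and 104 in the IGF2BP3-KO clone. In cytoplasmic RNA it was at 122, 118, 120 and 112 CPM in the controls, 140 and 138, then 80.6 and 77.2, then 71.1, 67.5, 79 and 76.2 in the 3 knockouts. The IGF2BP2-KO and IGF2BP3-KO libraries lay below all controls in both kinds, and cytoplasmic RNA of the IGF2BP1-KO clone lay above them. JAK1 fell in the IGF2BP3-KO clone by 0.43 (log2, SE 0.0971, adjusted p = 0.00271 by edgeR) in total RNA, by 0.37 (0.102, 0.00211) in nuclear RNA and by 0.74 (0.0452, 4.7e-16), or 1.67-fold, in cytoplasmic RNA. The fall in the IGF2BP2-KO clone was 1.47-fold in cytoplasmic RNA (log2 -0.56 ± 0.045, 7.3e-13) and smaller in total RNA (-0.27 ± 0.097, 0.0381), and in nuclear RNA it was not called (-0.16 ± 0.102, 0.195). JAK1 rose 1.16-fold in cytoplasmic RNA of the IGF2BP1-KO clone (0.21 ± 0.0426, 9.38e-05). Divided by total counts, without TMM, the total RNA values would be -0.21 (0.0889) in the IGF2BP3-KO clone and -0.08 (0.52) in the IGF2BP2-KO clone. That scaling moves the median of all genes up by 0.184 in the IGF2BP2-KO and 0.216 in the IGF2BP3-KO clone in total RNA, by 0.0973 and 0.125 in nuclear RNA and by 0.222 and 0.267 in cytoplasmic RNA, and every fold change here is relative to a median near 0.

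TYK2 (chromosome 19, 10350529 to 10380676, minus strand), the kinase held by IFNAR1, was lower in the IGF2BP3-KO clone in each fraction and went both ways in the IGF2BP2-KO clone. In cytoplasmic RNA it was at 75.9, 75.7, 84.5 and 89.3 CPM in the controls, 79.7 and 82.6 in the IGF2BP1-KO clone, 98 and 92.4 in the IGF2BP2-KO clone, and 63.5, 66.1, 53.7 and 55.9 in the IGF2BP3-KO clone. All 4 IGF2BP3-KO clone libraries were below the lowest control (with an overlap under total count scaling), and both IGF2BP2-KO clone libraries were above the highest. In nuclear RNA it was at 182, 202, 228 and 203 CPM in the controls, 191 and 150, then 168 and 182, then 155 and 153 in the 3 knockouts. TYK2 fell in the IGF2BP3-KO clone by 0.42 in cytoplasmic RNA (log2, SE 0.0505, adjusted p = 6.29e-09 by edgeR), by 0.49 in nuclear RNA (0.104, 0.000118) and by 0.25 in total RNA (0.0978, 0.0471). The last value lies at the threshold and would be -0.04 (0.766) under total count scaling and -0.12 (0.337) under upper quartile scaling. TYK2 in the IGF2BP2-KO clone was 1.1-fold higher in cytoplasmic RNA (0.13 ± 0.0491, 0.0189) and 1.23-fold lower in nuclear RNA (-0.30 ± 0.104, 0.0148). With no replicate block neither was called (0.0648 and 0.106).

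STAT2 and IRF9 are parts of ISGF3 and serve mainly type I and type III interferon. STAT2 (chromosome 12, 56341597 to 56360155, minus strand) was in total RNA at 64.7, 64, 68.7 and 63.6 CPM in the controls, 57.7 and 66.8 in the IGF2BP1-KO clone, 60.5 and 61.7 in the IGF2BP2-KO clone, and 93.3 and 101 in the IGF2BP3-KO clone. In nuclear RNA it was at 67.7 to 79.2 CPM in the controls, 66.9 and 54.6, then 48.2 and 53.4, then 95.6 and 98.9 in the 3 knockouts. Only the IGF2BP3-KO clone was above the controls, and in the nucleus the IGF2BP1-KO and IGF2BP2-KO clones were below all of them. Under total count scaling the IGF2BP2-KO clone would also lie above the controls in total RNA, at 64.71 and 65.5 CPM against a highest control of 64.67, and the IGF2BP1-KO clone would overlap them in the nucleus. STAT2 rose 1.46-fold in total RNA (log2 0.55 ± 0.0999, adjusted p = 0.000609 by edgeR) and 1.26-fold in nuclear RNA (0.33 ± 0.0972, 0.0041) of the IGF2BP3-KO clone, and it fell 1.52-fold in nuclear RNA of the IGF2BP2-KO clone (-0.60 ± 0.1, 2.25e-06). The direct difference between these knockouts was 0.66 ± 0.0998 (total), 0.93 ± 0.0994 (nuclear) and 0.85 ± 0.0727 (cytoplasmic RNA) (adjusted p by edgeR 0.000169, 9.02e-11 and 3.35e-12). The cytoplasmic difference was 0.48 (0.113) with no replicate block.

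In cytoplasmic RNA the STAT2 rise was seen in one pair of IGF2BP3-KO clone libraries and not in the other. The controls were at 20.3, 21.1, 26 and 22.9 CPM, batches 3 and 4 of the IGF2BP3-KO clone at 33.6 and 36.6, and batch 5 at 20 and 18.3. The call against the controls of batches 3 and 4 (log2 0.53 ± 0.076, adjusted p = 2.7e-07 by edgeR) rests on the first pair, and a fit with no replicate block, which uses all 4, gave 0.27 (0.248). Those 2 pairs differed in other RNAs too: the summed level of the nuclear RNA list was 785 and 761 CPM in batches 3 and 4 and 317 and 273 in batch 5, against 128 to 150 in the controls. The part of nuclear RNA in the STAT2 values was not tested. STAT2 in cytoplasmic RNA of the IGF2BP2-KO clone was at 18.9 and 20.1 CPM (-0.33 ± 0.0836, 0.001), with an adjusted p of 0.47 with no replicate block and 0.279 under total count scaling.

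The STAT2 and TYK2 results of the IGF2BP1-KO clone depend on the library under 2 labels. In nuclear RNA STAT2 had a log2 fold change of -0.24 ± 0.0987 (adjusted p = 0.0628 by edgeR) with it and -0.47 (0.00257) without it, and TYK2 had -0.18 ± 0.104 (0.208) and -0.43 (0.00417). In total RNA TYK2 had -0.07 ± 0.0977 (0.661) with it and -0.24 (0.0388) without it. In total RNA IRF2 had -0.47 ± 0.155 (0.0442) with it and -0.53 (0.0683) without it, and its call was lost in 18 of 19 alternatives. For the other members the values without it kept the side of the threshold they had with it, except IRF1 in nuclear RNA, given with that gene.

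IRF9 (chromosome 14, 24161053 to 24166565, plus strand), which gives ISGF3 its DNA binding, was the most nuclear of the 9 genes and had few counts in the cytoplasm. In total RNA it was at 3.1, 3.38, 3.13 and 2.76 CPM in the controls, 3.99 and 5.65 in the IGF2BP1-KO clone, 4.05 and 4.1 in the IGF2BP2-KO clone, and 4.01 and 5.31 in the IGF2BP3-KO clone. All 6 knockout libraries were above all 4 controls, but only the IGF2BP3-KO clone was called (log2 0.64 ± 0.201, 1 of the 2 libraries at 5.31 CPM; adjusted p = 0.0191 by edgeR). The IGF2BP1-KO and IGF2BP2-KO clones had 0.56 ± 0.198 (0.058) and 0.45 ± 0.209 (0.0953), and the IGF2BP1 value without the library under 2 labels was 0.37 (0.36). In nuclear RNA no knockout was called against the control. There IRF9 was at 3.93 to 4.71 CPM in the controls, 2.9 and 3.21 in the IGF2BP2-KO clone, below all of them, and 5.37 and 5.67 in the IGF2BP3-KO clone, above all of them. The IGF2BP2-KO value of -0.49 ± 0.22 (0.0586) was called in 7 of 19 alternatives, with no replicate block among them (0.0328). Directly between these 2 knockouts nuclear IRF9 differed by 0.85 ± 0.21 (adjusted p = 0.000702 by edgeR). In cytoplasmic RNA IRF9 was at 0.939, 0.793, 0.389 and 0.354 CPM in the controls, 0.836 and 1.1 in the IGF2BP2-KO clone, and 0.926, 0.894, 0.95 and 0.753 in the IGF2BP3-KO clone. The controls of batches 3 and 4 were lower than those of batches 1 and 2, and the calls (1.37 ± 0.443, 0.00767, and 1.28 ± 0.442, 0.0119) rest on them: with no replicate block the adjusted p was 0.17 and 0.208. The same-strand AL136295.5, with which IRF9 shares exon bases, rose by 1.25 (0.0046) in total RNA of the IGF2BP1-KO clone and fell by 0.90 (0.0114) in nuclear RNA of the IGF2BP2-KO clone, and reads of the shared bases could not be assigned to either gene.

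IRF1, the activator first found at the interferon beta promoter, was higher in 2 knockouts and lower in the other. It is on chromosome 5 (132481609 to 132490798, minus strand). In nuclear RNA it was at 8, 8.82, 8.88 and 8.46 CPM in the controls, 5.76 and 6.57 in the IGF2BP1-KO clone, 12.4 and 13.9 in the IGF2BP2-KO clone, and 15.4 and 13.3 in the IGF2BP3-KO clone. In cytoplasmic RNA it was at 7.54 to 10.1 CPM in the controls, 6.55 and 6.33, then 10.2 and 10.6, then 10.8, 11.6, 10.9 and 11.6 in the 3 knockouts. No knockout library of either kind lay within the range of the controls. IRF1 rose in the IGF2BP3-KO clone by 0.60 ± 0.133, 0.73 ± 0.145 and 0.52 ± 0.111 (log2; total, nuclear and cytoplasmic RNA; adjusted p by edgeR 0.00258, 4.31e-05 and 0.000116) and in the IGF2BP2-KO clone by 0.41 ± 0.137, 0.61 ± 0.147 and 0.41 ± 0.114 (0.0272, 0.000582 and 0.00207). In the IGF2BP2-KO clone the cytoplasmic value was 0.25 with no replicate block (0.104), and the call in total RNA was lost in 8 of 19 alternatives, DESeq2 among them (0.151). The difference between these 2 knockouts was not called in any kind, and was 0.19 ± 0.127, 0.11 ± 0.138 and 0.11 ± 0.0945 (log2 ± SE; adjusted p by edgeR 0.241, 0.515 and 0.32). The IGF2BP1-KO clone was lower in IRF1, 1.36-fold in nuclear RNA (-0.45 ± 0.157, 0.0295; -0.42 and 0.118 without the library under 2 labels) and 1.5-fold in cytoplasmic RNA (-0.58 ± 0.12, 0.000133), and in total RNA the value was -0.17 ± 0.142 (0.424). The antisense gene C5orf56, which covers 1716 exon bases of IRF1 on the other strand, was not called in any knockout or kind.

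IRF2, the repressor paired with IRF1, was called higher in nuclear RNA of 2 knockouts. It is on chromosome 4 (184387713 to 184474580, minus strand). In nuclear RNA it was at 4.31, 5.06, 4.37 and 4.39 CPM in the controls, 4.2 and 4.86 in the IGF2BP1-KO clone, 7.45 and 7.03 in the IGF2BP2-KO clone, and 6.37 and 6.16 in the IGF2BP3-KO clone. The IGF2BP2-KO and IGF2BP3-KO clones were above all controls in the nucleus, while their ranges overlapped those of the controls in total and cytoplasmic RNA, except under total count scaling, where the total libraries of the IGF2BP3-KO clone and the cytoplasmic ones of the IGF2BP2-KO clone lay above them. IRF2 rose 1.65-fold in nuclear RNA of the IGF2BP2-KO clone (log2 0.72 ± 0.188, adjusted p = 0.00126 by edgeR) and 1.43-fold in that of the IGF2BP3-KO clone (0.52 ± 0.188, 0.0196). In the IGF2BP3-KO clone it was also called in total RNA (0.40 ± 0.151, 0.0448) and cytoplasmic RNA (0.33 ± 0.145, 0.0457), but not with no replicate block (0.285 and 0.312). The cytoplasmic libraries of batch 5 were at 5.23 and 5.27 CPM, within the 4.69 to 6.68 of the controls.

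In the control, the ratio of nuclear to cytoplasmic RNA differed among the 9 genes. Of them, 5 were higher in nuclear than in cytoplasmic RNA and 2 lower. Of all 16246 genes tested, 5296 were higher and 5404 lower (65.9% called in 1 direction or the other). The 7 calls are near that share and are no result about the 9 genes. IRF9 was the most nuclear, by 2.68 ± 0.23 (log2 of nuclear over cytoplasmic CPM, adjusted p = 4.86e-10 by edgeR), followed by STAT2 at 1.64 ± 0.0678 (9.85e-16) and TYK2 at 1.24 ± 0.064 (5.76e-14). The median gene was at -0.02. IFNAR2 was at 0.34 ± 0.0845 (0.00117) and IFNAR1 at -0.47 ± 0.0667 (1.3e-06). IRF7 at 0.55 ± 0.24 (0.0496) and IRF2 at -0.35 ± 0.135 (0.028) were not called with no replicate block (0.0703 and 0.062), and JAK1 and IRF1 were not called. The nuclear RNA list stood at 262 to 372 CPM in the nuclear fraction of the controls, 249 to 305 in total RNA and 128 to 150 in the cytoplasm. Nuclear and cytoplasmic libraries are each scaled to their own total, so a ratio is relative to the other genes and not a share of molecules per cell.

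**Figure D3:**
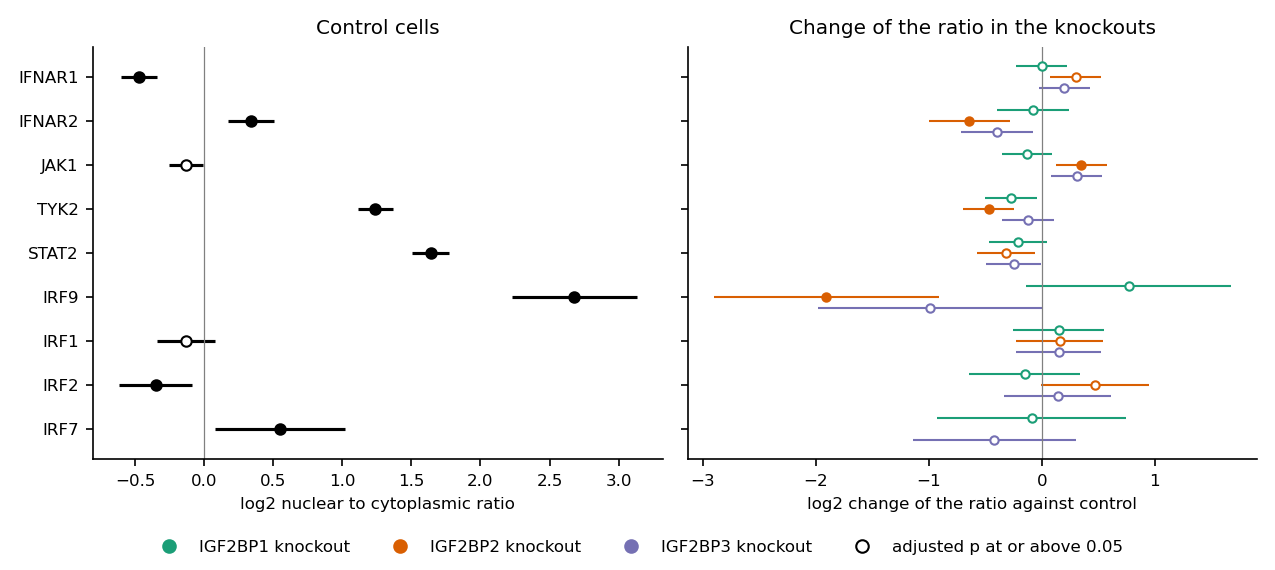
Left, the ratio of nuclear to cytoplasmic RNA in the control for the 9 genes (log2, edgeR); right, the change of that ratio in each knockout (log2), with bars of 1.96 standard errors. IRF9, STAT2 and TYK2 have the highest control ratios, and the called changes are those of IFNAR2, JAK1, TYK2 and IRF9 in the IGF2BP2-KO clone.

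The ratio itself changed in the IGF2BP2-KO clone for 4 of 9 genes (17.5% of all genes), tested as the difference between the nuclear and the cytoplasmic change. It fell for IFNAR2 by 0.64 (log2, SE 0.183, adjusted p = 0.00787 by edgeR), for TYK2 by 0.47 (0.116, 0.00155) and for IRF9 by 1.91 (0.508, 0.00361), and it rose for JAK1 by 0.35 (0.116, 0.0222). With no replicate block IFNAR2 and TYK2 were called and JAK1 (0.242) and IRF9 (0.0652) were not. In the IGF2BP1-KO clone (4.11% of all genes) and the IGF2BP3-KO clone (10.9%), 0 of 9 genes were called. At an unadjusted p under 0.05 these were 1 and 3 genes, and DESeq2 called 0 in each. Without the library under 2 labels TYK2 in the IGF2BP1-KO clone had -0.58 (0.0286) and JAK1 in the IGF2BP3-KO clone 0.34 (0.0357). The nuclear RNA list was higher in cytoplasmic RNA of the IGF2BP2-KO clone, at 636 and 663 CPM, than in the controls at 128 to 150, and higher in total RNA too, at 768 and 793 against 249 to 305. Its part in these ratios was not tested.

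Among the interferon-induced genes that were tested, the count called higher was largest in the IGF2BP3-KO clone. The list of 30 interferon-induced genes was taken from textbook knowledge with earlier results of these data known, and 22 were tested in each kind. The filter on low counts also keeps genes that are expressed in a knockout and near 0 in the controls. Such genes could be called only higher, and how many of the 22 entered in this way was not worked out. The counts and medians that follow thus describe the genes tested and are no test of the list. In total RNA of the IGF2BP3-KO clone 15 of the 22 were higher and 0 lower, the nuclear counts were 14 and 0, and the cytoplasmic ones 19 and 1, with median log2 fold changes of 1.08, 1.20 and 1.27. Of all genes tested there, 23.5%, 25.1% and 31.5% were higher and 23.4%, 25.3% and 33.2% lower. The IGF2BP2-KO clone had 9 higher and 4 lower, both in total RNA and in the nucleus, and 8 and 8 in the cytoplasm, with medians of 0.10, 0.53 and 0.11. Of all genes in that clone, 23.3%, 24.8% and 30.9% were higher and 23.7%, 24.9% and 33.2% lower. The IGF2BP1-KO clone had 5 and 5, 4 and 5, and 3 and 8 called, with medians of 0.14, 0.10 and -0.21. Of all genes in this clone, 10.7%, 12.7% and 22.5% were higher and 13.5%, 13% and 21.9% lower. Without the library under 2 labels the list counts of the IGF2BP1-KO clone were 3 and 5 in total RNA and 2 and 4 in nuclear RNA, with medians of -0.03 and 0.11. The medians of all genes were 0.00 to 0.02.

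**Figure D4:**
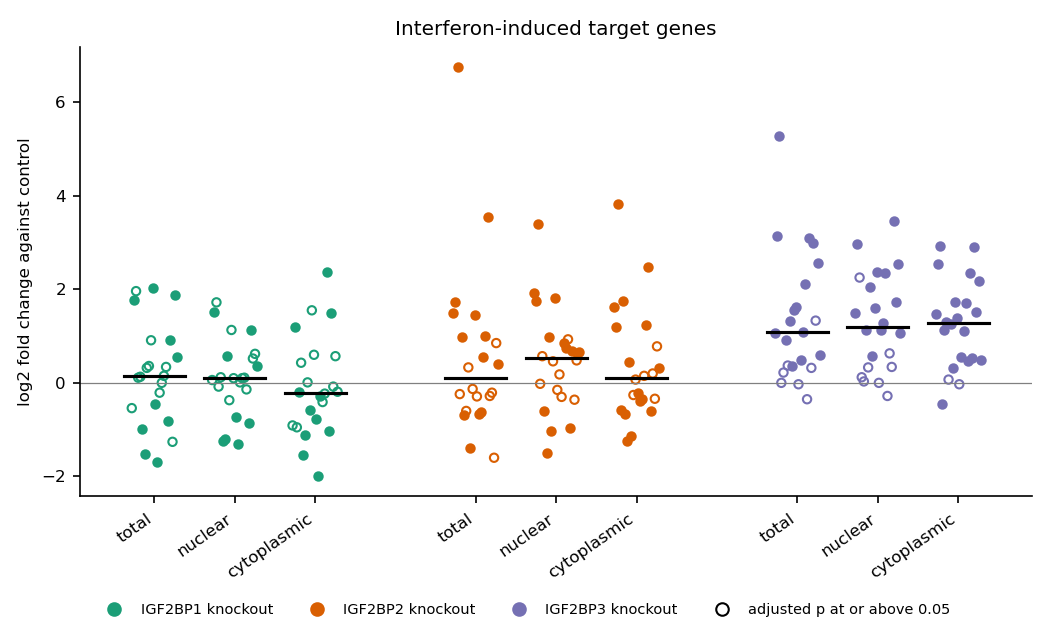
Log2 fold change (vertical axis, edgeR) of each tested interferon-induced gene in each knockout and RNA kind, with a bar at the median. The medians of the IGF2BP3-KO clone lie at 1.08 to 1.27 and those of the other 2 knockouts between -0.21 and 0.53.

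Of the pathway lists, the genes called in 1 direction in all 3 kinds were ranked by the smallest of their 3 changes. The mean of at least 1 CPM asked of them is over all libraries of a kind. A gene near 0 in the controls could thus pass through a knockout, and could be called only higher. The share of all genes called 1 way in all 3 kinds was not worked out, so the counts for the 3 knockouts are no result about the lists. In the IGF2BP3-KO clone, 15 of 47 listed genes with a mean of at least 1 CPM were higher in all 3 kinds and 3 lower. OAS3, an enzyme that makes the activator of RNase L, led with log2 fold changes of 2.99, 3.46 and 2.91 in total, nuclear and cytoplasmic RNA. EPSTI1, an interferon-induced gene first described in breast epithelium, rose by 3.13, 2.96 and 2.54, and IFITM3, which blocks the entry of viruses at the endosome, by 2.12, 2.35 and 1.71. IRF8, a factor best known from myeloid cells, fell by 1.03, 0.90 and 1.10, SOCS2, an inhibitor of cytokine receptors, by 0.70, 0.62 and 0.58, and PIAS3, an inhibitor of STAT3, by 0.47, 0.48 and 0.49. Lists of markers of other cell types had higher sums in total RNA of this knockout. Of 8 haematopoietic markers 2 were at or above 1 CPM, against 1 in the controls, CD14 being above it in the knockout only. In total RNA that list summed to 7.74 and 7.21 CPM against 2.73 to 3.85 in the controls. COL1A1 made up nearly all of the fibroblast list, which summed to 70.1 and 71.2 CPM in total RNA against 30.4 to 32.5. The 4 endothelial markers summed to 1.78 and 1.84 CPM against 0.458 to 0.608 in total RNA, with KDR above 1 CPM. Their part in these results was not tested.

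Of the listed genes, 9 were higher and 7 lower in all 3 kinds of the IGF2BP2-KO clone. BST2, which tethers budding virus to the cell, rose by 1.49 (total), 1.91 (nuclear) and 1.62 (cytoplasmic RNA), EPSTI1 by 1.73, 1.75 and 1.20, and IRF2BP2, a corepressor bound by IRF2, by 1.05, 1.32 and 1.06. IRF8 fell by 1.19, 1.12 and 1.43, IFIT1, which binds viral RNA caps, by 1.40, 1.02 and 1.13, and PIAS3 by 0.72, 0.76 and 0.67. There were 3 higher and 8 lower in the IGF2BP1-KO clone. EPSTI1 rose by 1.77, 1.51 and 1.19, OAS3 by 0.92, 1.13 and 1.49, and IRF2BPL, a relative of IRF2BP2, by 0.43, 0.64 and 0.63. IFITM1 fell by 1.69, 1.31 and 1.99, IRF8 by 1.37, 1.37 and 1.25, and IFI35 by 0.98, 1.24 and 1.55. Without the library under 2 labels these 6 genes were called in the same direction in total and nuclear RNA, with EPSTI1 at 3.01 and IRF2BPL at 0.72 in total RNA moving most. IRF8 and EPSTI1 were thus called in the same direction in all 3 knockouts, of which 2 share controls.

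Other parts of the pathway were called in both directions. Of 16 other JAK, STAT and IRF genes, 13 were tested in total RNA, and 1 was higher and 4 lower in the IGF2BP1-KO clone, 2 and 6 in the IGF2BP2-KO clone, and 3 and 3 in the IGF2BP3-KO clone. The shares of all genes called higher and lower there were 10.7% and 13.5%, 23.3% and 23.7%, and 23.5% and 23.4%. The medians of these 13 genes were -0.03, -0.29 and -0.16. Of 17 negative regulators, 16 were tested in total RNA, and 1 was higher and 2 lower, 4 and 3, and 3 and 4 in the 3 knockouts. USP18, which displaces JAK1 from IFNAR2, was called only in cytoplasmic RNA of the IGF2BP3-KO clone, where it fell by 0.21. Of the other receptor genes, 4 were tested in total RNA, and 0 were called in the IGF2BP1-KO clone, 2 lower in the IGF2BP2-KO clone and 1 lower in the IGF2BP3-KO clone.

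For the 3 members with the widest range of fold changes, the most similar genes were sought among 14434 genes by the root mean square difference over 9 log2 fold changes (3 knockouts in 3 RNA kinds), which share controls and libraries. For IRF7 the closest in rank were GALC, CTSF and NAALAD2, with no distance given because the fitted changes in the IGF2BP2-KO clone come from 0 to 2 counts of IRF7 and are not exact. GALC, a lysosomal enzyme, was at 0 counts in total and cytoplasmic RNA and 0 and 2 in nuclear RNA of the IGF2BP2-KO clone, against 1.83 to 2.39 CPM in total RNA of the controls, and at 8.05 and 8.46 CPM in the IGF2BP3-KO clone. For IFNAR2, whose fold changes span 1.70, the closest were C3orf18 (0.142), OLMALINC (0.158) and TMEM50B (0.16). TMEM50B lies in the same region of chromosome 21, past IFNAR1, and overlaps IFNGR2 on the other strand. For IRF9, whose fold changes span 1.93, the closest were SUGT1-DT (0.301), PSD (0.303) and GSK3B-DT (0.327).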

How the data were processed

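Poly(A) RNA of HEK293T cells was sequenced as paired reads on a stranded kit, per the labels. The values used are the gene counts that the authors deposited, made with STAR, featureCounts and the build GRCh38, per the submitters' processing notes, which also name DESeq2 1.44.0. The FPKM values that the authors deposited were checked and left out: in every library 100% of genes with over 500 counts fell within 1% of an FPKM scaled by the genomic span of the gene and at most 1.01% within 1% of one scaled by exon length, so levels between genes are CPM per kb of GENCODE release 29 exons instead.

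Libraries were grouped by the labels, and the batch label was taken to pair a knockout with its controls. For each RNA kind, edgeR 4.0.16 (R 4.3.3) was run on the counts with TMM normalisation, its filter on low counts, and genotype and batch as terms, and p-values were adjusted over all 18745 (total), 18732 (nuclear) and 18212 (cytoplasmic) genes tested. A knockout-by-fraction term gave changes of the nuclear to cytoplasmic ratio (19310 genes), and the control was compared between fractions (16246 genes). Printed levels are TMM-normalised CPM; marker sums, counts and limits use the counts as deposited. As a check of pairing, the differences between batches in a knockout and in its controls correlated at -0.157 to 0.0159 over genes. These values are near 0 or negative, so the check does not show that libraries of 1 batch share a difference. Calls that depend on the batch term are less certain for that reason. The fits were tested on simulated data. DESeq2 1.42.0, other scalings and filters, the fit without batch, the batches of a knockout alone, and fits without batch 5, without the shared library or without each library in turn were alternatives. Total count scaling, leaving the shared library out of the ratio fit and of the list counts and a fit with exchanged batches were added after the data were seen. The 9 genes and all lists were chosen with earlier results of these data known. From the lists, up to 3 genes higher and 3 lower per knockout are named, those called one way in all 3 RNA kinds with a mean of at least 1 CPM, ranked by their smallest change. Some listed genes are not reported here by name. No column of a sample outside the series was found. Promoters are from RefSeq (GRCh38.p14).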

Additional observations from a re-analysis of the deposited data

Results flagged for a closer look

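In the IGF2BP2-KO clone, the change in nuclear RNA differed from that in cytoplasmic RNA by a test of the difference itself for 4 of the 9 genes: IFNAR2 (log2 -0.64), JAK1 (0.35), TYK2 (-0.47) and IRF9 (-1.91). Of these, JAK1 and IRF9 were not called with no replicate block, DESeq2 called 1 of the 4, and IRF9 rests on cytoplasmic levels of 0.354 to 1.1 CPM. The nuclear RNA list was at 636 and 663 CPM in the cytoplasm of that knockout against 128 to 150 CPM in the controls, and its part in the ratios was not tested. IRF2 in the nuclear control of batch 2 was at 5.06 normalised CPM, apart from the other 3 controls at 4.31 to 4.39. It was the 1 of 36 groups of 4 libraries in which 1 library stood apart by this measure, where chance alone gives about 1 in 20.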

How the results depend on the processing

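Of 144 results on the 9 genes, 75 were called, of which 40 kept the call in every alternative run and 35 lost it in at least 1. None of the called results changed sign in any alternative, and 23 results that were not called passed in at least 1. The counts of genes called stayed within 1.5 times under RLE, upper quartile and total count scaling, under a minimum mean of 1 CPM and without batch 5. DESeq2 gave 0 genes for the IGF2BP1-KO clone in total RNA (1 in the report) and 0 in nuclear RNA (1), 2 for the IGF2BP2-KO clone in total RNA (4) and 1 for its ratio (4). No filter gave 2 genes in total RNA of the IGF2BP1 and 2 in that of the IGF2BP2-KO clone. The batches of the IGF2BP1-KO clone alone gave 0 in total and 0 in nuclear RNA. The fit with no replicate block gave 2 genes for nuclear RNA of the IGF2BP1-KO clone (1). For the IGF2BP2-KO clone it gave 4 in cytoplasmic RNA (8) and 2 for the ratio (4). In that fit 13 of 16 counts stayed within 1.5 times. The correlation of batch differences was under -0.1 for 2 comparisons. A replicate block with exchanged batches, added after the data were seen, gave 9 genes for total RNA of the IGF2BP3-KO clone (9) and 2 for nuclear RNA of the IGF2BP1-KO clone (1). Without the shared library, 2 genes were called in nuclear RNA of the IGF2BP1-KO clone, 1 in its ratio (0) and 1 in the ratio of the IGF2BP3-KO clone (0). Leaving out each library in turn gave, for the IGF2BP1-KO clone, 0 to 4 genes in total, 0 to 2 in nuclear and 2 to 3 in cytoplasmic RNA, for the IGF2BP2-KO clone 1 to 4, 5 to 7 and 6 to 8, and for the IGF2BP3-KO clone 5 to 9, 4 to 8 and 7 to 9. Between these last 2 knockouts it gave 4 to 6, 5 to 7 and 6 in total, nuclear and cytoplasmic RNA. The ratio had 0 to 1, 1 to 4 and 0 to 1 genes in the 3 knockouts, and the control comparison 5 to 7. The IGF2BP3 count fell to 5 in total RNA without the control of batch 3 or of batch 4 or either of its own libraries, and in nuclear RNA to 4 without the control of batch 4 or its own library of batch 3. In the IGF2BP1-KO clone, 4 genes were called in total RNA without its library of batch 1 or the control of batch 1. The cause of these changes was not tested. Where 1 library is left in a group, its spread is assumed to be that of the others. Depth limits IRF7 and cytoplasmic IRF9 most, with 14 to 47 counts of IRF7 in a control library.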

Other observations

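Genes near IRF7 on chromosome 11 were looked at after its values were seen. In the IGF2BP2-KO clone the neighbour PHRF1 was lower in total, nuclear and cytoplasmic RNA, with log2 fold changes of -0.73, -0.54 and -0.85 (adjusted p by edgeR 0.000102, 9.48e-06 and 4.62e-15). RASSF7 and DRD4 were not called in any kind, and DEAF1 was higher in nuclear RNA by 0.25 (0.0254). Of 13801 genes with at least 1 CPM in the controls of each RNA kind, 3 had at most 3 counts in each kind of the IGF2BP2-KO clone: GALC, IRF7 and SNX19. The same measure gave 2 genes in the IGF2BP1-KO clone (GSPT2 and STMN2) and 5 in the IGF2BP3-KO clone.

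The receptor genes of chromosome 21 lie in the order IFNAR2, IL10RB, IFNAR1 and IFNGR2, with TMEM50B on the other strand, and were also compared after their values were seen. In nuclear RNA of the IGF2BP2-KO clone IFNAR2, IL10RB and TMEM50B fell by 1.05, 1.18 and 0.72 (log2, adjusted p by edgeR 1.6e-08, 0.000715 and 2.73e-07). IFNAR1 (-0.02, 0.899) and IFNGR2 (0.01, 0.943) were not called there. In cytoplasmic RNA of that clone IFNAR1 (-0.36, 2.22e-07) and IFNGR2 (-0.33, 5.61e-07) were lower, as were IFNAR2 (-0.45, 0.000735) and TMEM50B (-0.42, 3.16e-05). IL10RB was not called there (-0.62, 0.0717). In total RNA IFNGR2 was lower as well (-0.34, 0.0107), and IFNAR1 was not called (-0.08, 0.518). In nuclear RNA of the IGF2BP3-KO clone IFNAR1, IFNGR2 and TMEM50B rose by 0.55, 0.74 and 0.58 (3.22e-06, 1.07e-08 and 4.26e-06). IFNAR2 rose by 0.31 (0.0311), and IL10RB was not called (-0.30, 0.336).

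RAVER2, on the opposite strand of JAK1 with 4 shared exon bases, fell in the IGF2BP3-KO clone by 0.96 in total, 0.96 in nuclear and 0.87 in cytoplasmic RNA (log2; adjusted p by edgeR 4.57e-06, 9.25e-12 and 6.22e-17) and was not called in the other 2 knockouts. IRF2BP2 was called higher in all 3 kinds of the IGF2BP2-KO clone and in none of the IGF2BP3-KO clone, where its log2 fold changes were -0.00, 0.19 and -0.08. The direct comparison of these knockouts was not looked up for this gene.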
